A study of Homo sapiens with 5 samples.

Results

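*TRMT112* and 7 methyltransferases that its protein is known to activate, *ALKBH8*, *BUD23*, *METTL5*, *TRMT11*, *THUMPD2*, *THUMPD3*, and *N6AMT1*, were compared between control and *MTSS1* knockout TF-1 cells. *TRMT112* was chosen by the rise of its count in this same comparison, and the 7 partners were added by what is known of their proteins. The 8 genes are 8 of the 27328 genes in the count table, matched by Ensembl identifier, and all 8 had enough counts to be among the 14391 genes tested. For *TRMT112*, most of the counts that let it pass this filter came from the knockout pools.

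TF-1 is a human leukemia cell line that grows as CD34+ erythroid and myeloid progenitor-like cells. All cells had received a lentiviral vector with Cas9, GFP, and 1 sgRNA, and had been grown from single cells. The 2 control pools (sgCtrl_1, sgCtrl_2) carried a control sgRNA against Renilla luciferase, and the 3 knockout pools (sgMTSS1_1, sgMTSS1_2, sgMTSS1_3) carried sgRNAs against *MTSS1*, a gene of actin and membrane dynamics. For each library, 4 clones were mixed and grown together overnight before RNA was extracted, and no drug is named for these cells. A pool mean does not show whether a level is shared by its clones, set by 1 of them, or shifted by a change in their shares during growth. A further sgCtrl pool and the sgMTSS1_4 pool were dropped by the authors after an outlier test on the expression data and are not analysed here. The spread between the remaining pools, and each error and p-value that rests on it, is therefore the spread after that selection.

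Libraries were sequenced from the 3′ ends of mRNAs, so a gene's count does not scale with its length. Levels are given as CPM, counts per 1000000 after TMM normalization of library totals. The control libraries held 2849979 and 3408827 counts. The knockout libraries held 8854899 (sgMTSS1_1), 5442639 (sgMTSS1_2), and 5801636 (sgMTSS1_3) counts. The sgMTSS1_1 library was thus the deepest, and it had the lowest TMM factor, 0.876. The limit that a count of 0 allows, 3 counts, equals 0.938 CPM in the shallowest library. *MTSS1* mRNA itself was found at 204 CPM in sgCtrl_1, 87.9 CPM in sgCtrl_2, 104 CPM in sgMTSS1_1, 139 CPM in sgMTSS1_2, and 49.9 CPM in sgMTSS1_3. These ranges overlapped, so the transcript of the targeted gene gave no check of the labels. Knockout clones had been picked by absence of the MTSS1 protein on immunoblots. All 11 progenitor markers fixed for TF-1 were above 1 CPM. Their summed level was 1448 to 1547 CPM in control and 1836 to 2318 CPM in knockout pools. *TFRC*, the highest of them, was at 611 and 638 CPM in control and at 1538, 750.5, and 1216 CPM in knockout pools. Without *TFRC*, the summed marker levels of the groups overlapped. *GATA1* was lower in each knockout pool, an order found in 19.2% of all tested genes. By the rule given below, 0 of the 11 were called, beside 4.17% of all tested genes called higher and 1.01% lower. *TFRC* and *GATA1* were named here after their values were seen. Of 9 markers of other cell types, 7 were in the table and 3 were above 1 CPM (*KRT8*, *KRT18*, and *PECAM1*). The summed level of the 7 was 211 to 252 CPM in control and 347 to 397 CPM in knockout pools. Its largest part in each pool was *PECAM1*, at 144 and 116 CPM in control and 201, 239, and 199 CPM in knockout pools. The part of these markers in the results was not tested.

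TRMT112 is a small zinc-binding protein without catalytic activity of its own. It binds a set of methyltransferases and keeps them stable and active, so that 1 activator serves enzymes acting on several parts of the translation machinery. BUD23 and METTL5 methylate the RNA of the small ribosomal subunit. TRMT11 and THUMPD3 methylate guanosines in tRNAs, and ALKBH8 completes the modified uridine at the wobble position of some anticodons, which is known to be needed for selenoprotein synthesis. THUMPD2 methylates a small nuclear RNA of the spliceosome. N6AMT1 methylates the translation termination factor encoded by *ETF1*.

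*TRMT112* (ENSG00000173113) lies on the minus strand of chromosome 11 at chr11:64316460-64317559 (GRCh38), in 4 exons with a transcript of 812 bases and a coding sequence of 375 bases. The 250 bases in front of its transcription start are shown because it was the gene of this set that changed most. They lie at chr11:64317560-64317809 on the minus strand and are taken from RefSeq (GRCh38.p14). Capitals mark CCGGAAG, the core of sites bound by ETS family factors, or its reverse complement CTTCCGG:
*TRMT112*: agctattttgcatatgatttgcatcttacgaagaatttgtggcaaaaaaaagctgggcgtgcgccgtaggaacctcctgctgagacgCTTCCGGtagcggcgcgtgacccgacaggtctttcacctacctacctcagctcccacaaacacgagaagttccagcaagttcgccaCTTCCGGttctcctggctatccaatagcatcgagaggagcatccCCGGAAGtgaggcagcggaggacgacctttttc
The 3 matches were noticed in this sequence, so the motif was not chosen independently of it. In windows of 300 bases (250 before to 50 after a RefSeq start, both strands), CCGGAAG occurred at least once in 10.3% and at least 3 times in 0.279% of 35116 promoters. RefSeq windows were found for 6 of the 8 genes, not for *THUMPD2* and *N6AMT1*. CCGGAAG occurred once each in those of *METTL5*, *THUMPD3*, and *TRMT11* and not in those of *BUD23* and *ALKBH8*. A further *TRMT112* window, at a start 431 bases upstream, held 1 match. CACGTG, the E-box bound by MYC (7.26% of promoters), and the CArG box of serum response factor (1.29%) were in none of these windows. A match describes the letters only, and no binding was measured.

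*TRMT112* was counted 26 and 6 times in the sgCtrl_1 and sgCtrl_2 pools, and 1431 (sgMTSS1_1), 451 (sgMTSS1_2), and 568 (sgMTSS1_3) times in the knockout pools. These counts equal 8.13 and 1.79 CPM in control and 186, 81.4, and 98.8 CPM in knockout pools. The sgMTSS1_1 pool, also the deepest library, was the highest and the sgCtrl_2 pool the lowest, and the groups did not overlap. The lowest knockout pool was 10.02 times the highest control pool.

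Control pools averaged 4.96 ± 4.48 CPM of *TRMT112* (SD, n = 2) and knockout pools 122 ± 55.8 CPM (SD, n = 3). The log2-fold change was 4.62 (SE, standard error, 0.65, 95% interval 3.16 to 6.08), or 24.7-fold, the 44th highest of the 14391 genes. No p-value is given, since the gene was chosen for this rise. Among all tested genes, its mean level moved from percentile 26.9 in control to percentile 88.9 in knockout pools.

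How large the rise was depended on the control pools. Counting error alone gave 95% Poisson intervals of 5.31 to 11.9 CPM in the sgCtrl_1 and 0.656 to 3.89 CPM in the sgCtrl_2 pool, which did not overlap. The control pools differed 4.55-fold and the knockout pools at most 2.28-fold. The log2-fold change was 6.09 with sgCtrl_1 left out and 3.93 with sgCtrl_2 left out. It was 4.55 when every library was thinned at random to 2849979 counts, the total of the shallowest.

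**Figure D1:**
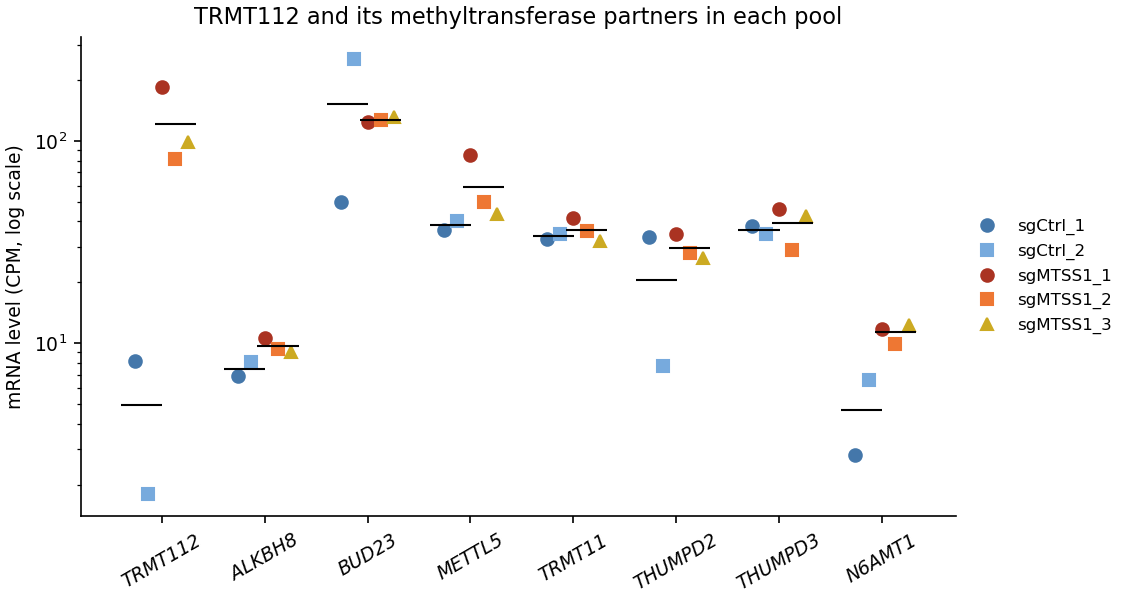
Level of each gene in each pool, in CPM on a log scale, with 1 point per pool and a black line at each group's mean. *TRMT112* is at 1.79 and 8.13 CPM in the control pools and between 81.4 and 186 CPM in the knockout pools, whereas the group means of the 7 partners differ far less and the control pools stand far apart for *BUD23* and *THUMPD2*.

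The end of *TRMT112* that these libraries read is shared with another gene. The last exon (chr11:64316460-64316968, 509 bases) overlaps the last exon of *ESRRA*, a nuclear receptor gene on the plus strand, by 284 bases (chr11:64316460-64316743), all within the 404-base 3′ UTR of *TRMT112*. The 2 protein-coding *TRMT112* transcripts end at 64316460 and 64316695, both inside the *ESRRA* exon. Whether counting used strand is not given in the sources used here, and reads of the shared bases could be assigned to either gene or dropped if it did not.

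*ESRRA* itself was counted 3 and 3 times in control and 7, 2, and 1 times in knockout pools, too low to be tested. These counts were 0.894 to 0.938 CPM in control and 0.174 to 0.908 CPM in knockout pools. The assignment of reads between *TRMT112* and *ESRRA* was not tested. Of 7 annotated pseudogenes named after *TRMT112*, *TRMT112P6* was in the table, at 1 and 0 counts in control and 36, 1, and 4 counts in knockout pools. Its 36 counts in the sgMTSS1_1 pool stood beside 1431 for *TRMT112*.

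Genes were called higher or lower at an adjusted p under 0.05 with a log2-fold change over 1 in that direction. Of 10 tested genes within 100 kb of *TRMT112*, 1 was called higher and 0 lower, beside 4.17% and 1.01% of all tested genes. The median log2-fold change of the 10 was −0.14, against −0.03 for all tested genes. The gene called was *PLCB3*, a phospholipase C, named here after its values were seen. It was at 14.1 and 13.4 CPM in control and at 34.0, 51.6, and 54.1 CPM in knockout pools, with a log2-fold change of 1.76 (adjusted p = 0.0240, edgeR quasi-likelihood test with Benjamini-Hochberg adjustment over all tested genes, as for each adjusted p given without another tool).

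*PRDX5*, a peroxiredoxin gene that starts 562 bases from *TRMT112*, was at 62.9 and 89.7 CPM in control and at 85.0, 48.7, and 47.9 CPM in knockout pools. The groups overlapped (log2-fold change −0.33, adjusted p = 0.618). *GPR137*, the nearest tested gene on the other side at 26966 bases, was lower in each knockout than in each control pool but did not pass the test (−1.25, adjusted p = 0.109).

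None of the 7 partner genes passed the threshold (0 of 7 in edgeR, DESeq2, and limma-voom alike). In edgeR, 1 of the 7, *N6AMT1*, was below an unadjusted p of 0.05, as were 3359 of all 14391 genes. Over all tested genes 4.17% were called higher and 1.01% lower. In 3 of the 7 (*ALKBH8*, *METTL5*, and *N6AMT1*) every knockout pool was above both control pools, an order found in 22.2% of all tested genes. In 0 of the 7 every knockout pool was below both, which held for 19.2% of all tested genes. The median log2-fold change of the partners was 0.38, beside −0.03 for all tested genes.

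*N6AMT1* (chr21:28872191-28885371, minus strand), the translation termination factor methyltransferase, was the partner with the highest fold change. It was counted 9 and 22 times in the control pools and 91, 55, and 71 times in the knockout pools. Its level was 2.81 and 6.56 CPM in control and 11.8, 9.93, and 12.4 CPM in knockout pools, without overlap. The means were 4.69 ± 2.65 CPM (SD, n = 2) and 11.4 ± 1.27 CPM (SD, n = 3). The log2-fold change was 1.27 (SE 0.46, 95% interval 0.25 to 2.29), but it did not pass the correction for all genes (unadjusted p = 0.0199, adjusted p = 0.134, edgeR). Over the 12 alternative settings in which it could be tested, the log2-fold change stayed between 0.80 and 2.03 and the adjusted p between 0.0529 and 0.320.

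The mRNA of the substrate of this enzyme did not pass the test. *ETF1*, which encodes the release factor that recognizes stop codons, was at 127 and 180 CPM in control and at 102, 116, and 131 CPM in knockout pools. These ranges overlapped (log2-fold change −0.40, adjusted p = 0.458). *GSPT1*, the GTPase partner of the release factor and the highest expressed of the 3 release factor genes, was at 359 and 332 CPM in control and at 178, 231, and 215 CPM in knockout pools. It was lower in each knockout pool, an order found in 19.2% of all tested genes, without passing the test (−0.73, adjusted p = 0.166). On the same strand, *GSPT1* overlaps *COX6CP1*, a processed pseudogene, and the noncoding gene ENSG00000261560. The median of the 3 genes, with *GSPT2*, was −0.67, and 0 of 3 were called in edgeR, DESeq2, or limma-voom. In edgeR, 1 of them (lower) had an unadjusted p under 0.05, as did 3359 of all 14391 genes. Over all tested genes in edgeR, 4.17% were called higher and 1.01% lower. *ETF1* and *GSPT2* were named here after their values were seen.

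The partners that act on ribosomal RNA differed in how well they could be measured. *METTL5* (chr2:169810081-169824931, minus strand), an adenosine methyltransferase, was counted 116 and 135 times in control and 655, 277, and 251 times in knockout pools. Its level was 36.3 and 40.2 CPM in control and 85.0, 50.01, and 43.7 CPM in knockout pools. The groups did not overlap, and the sgMTSS1_1 pool was the highest by a wide margin. The log2-fold change was 0.64 (SE 0.36, 95% interval −0.17 to 1.45, adjusted p = 0.322), and 0.28 without the sgMTSS1_1 pool.

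The 3′ end of *METTL5* overlaps 1984 bases of *SSB*, which encodes the La RNA-binding protein on the opposite strand. *SSB* was at 611 and 468 CPM in control and at 959, 678, and 570 CPM in knockout pools, and was likewise highest in the sgMTSS1_1 pool. Its groups overlapped (log2-fold change 0.45, adjusted p = 0.488). *SSB* was expressed at many times the level of *METTL5* in each pool, and whether reads of one gene were assigned to the other was not tested.

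*BUD23* (chr7:73683597-73698212, plus strand), a guanosine methyltransferase and the highest expressed partner, was counted 160 and 858 times in control and 953, 703, and 753 times in knockout pools. Its level was 50.03 and 256 CPM in control and 124, 127, and 131 CPM in knockout pools. The control pools differed 5.11-fold and enclosed all 3 knockout pools, which differed 1.06-fold. The log2-fold change was −0.27 (SE 0.53, 95% interval −1.46 to 0.93, adjusted p = 0.809). *BUD23* was called higher with sgCtrl_2 left out (1.37, adjusted p = 0.0433) and was at −0.996 with sgCtrl_1 left out, so its direction was set by the choice of control pool.

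Of the tRNA enzymes, *TRMT11* (chr6:125986479-126203817, plus strand) varied least. It was at 32.8 and 34.9 CPM in control and at 41.5, 35.7, and 31.8 CPM in knockout pools. The ranges overlapped, and the log2-fold change was 0.10 (SE 0.29, 95% interval −0.55 to 0.76, adjusted p = 0.869). No other partner had a narrower interval.

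*THUMPD3* (chr3:9362971-9386791, plus strand) was at 37.8 and 34.6 CPM in control and at 46.0, 28.9, and 42.8 CPM in knockout pools. Knockout pools lay on both sides of the control pools, and the log2-fold change was 0.12 (SE 0.32, 95% interval −0.60 to 0.83, adjusted p = 0.862). The whole gene (23821 bases) lies within *THUMPD3-AS1*, a noncoding gene on the opposite strand, which was at 35.6 and 36.7 CPM in control and at 35.02, 31.4, and 34.8 CPM in knockout pools. Whether reads of one gene were assigned to the other was not tested.

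*ALKBH8* (chr11:107502727-107565742, minus strand), the wobble uridine enzyme, was one of the lowest expressed partners, with 22 and 27 counts in control and 82, 52, and 52 counts in knockout pools. Its level was 6.88 and 8.05 CPM in control and 10.6, 9.39, and 9.05 CPM in knockout pools. The knockout pools were all above the control pools by a small step, with a log2-fold change of 0.38 (SE 0.37, 95% interval −0.45 to 1.21, adjusted p = 0.586).

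*THUMPD2* (chr2:39736060-39779267, minus strand), the small nuclear RNA enzyme, was at 33.5 and 7.75 CPM in control and at 34.5, 28.0, and 26.4 CPM in knockout pools. As for *BUD23*, the control pools were further apart (4.32-fold) than the knockout pools (1.31-fold), but here sgCtrl_1 was the higher control. The log2-fold change was 0.53 (SE 0.51, 95% interval −0.62 to 1.68, adjusted p = 0.581). *THUMPD2* was called higher with sgCtrl_1 left out (1.95, adjusted p = 0.0280) and was at −0.15 with sgCtrl_2 left out. The low *THUMPD2* level in the sgCtrl_2 pool stood beside the low *TRMT112* level in the same pool, which rested on 6 counts. Of the other partners, *BUD23*, *N6AMT1*, *ALKBH8*, *METTL5*, and *TRMT11* were higher in sgCtrl_2 than in sgCtrl_1, and *THUMPD3* was lower.

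**Figure D2:**
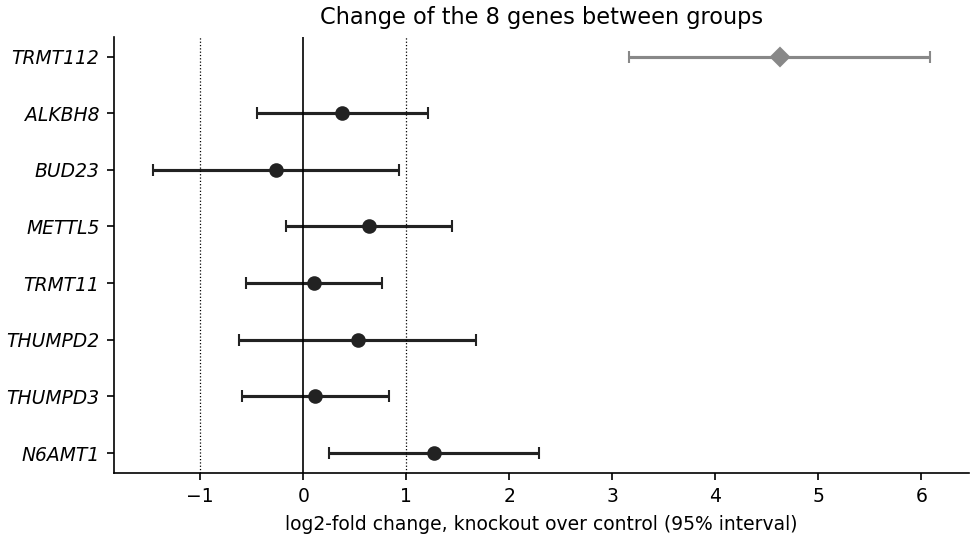
Log2-fold change of each gene between knockout and control pools, with its 95% interval; dotted lines mark a change of 1 in either direction. The interval of *TRMT112*, drawn in grey because the gene was chosen for its rise, runs from 3.16 to 6.08, and those of the partners include 0 except for *N6AMT1* (0.25 to 2.29).

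**Figure D3:**
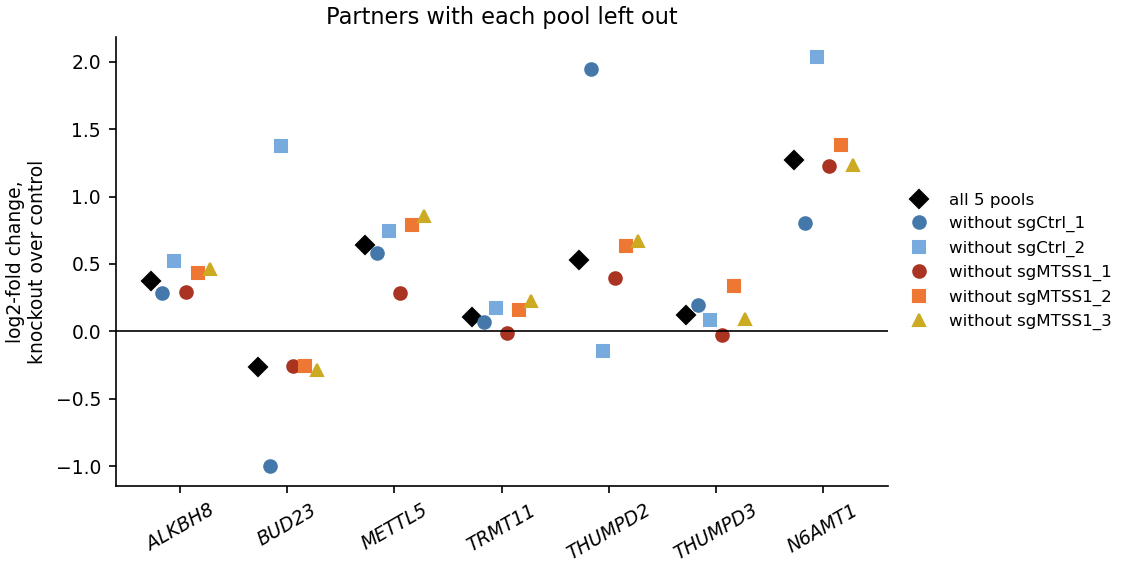
Log2-fold change of the 7 partners with all 5 pools and with each pool left out in turn. *BUD23* lies between −0.996 and 1.37 and *THUMPD2* between −0.15 and 1.95, both depending on which control pool remains, while *N6AMT1* stays between 0.80 and 2.03.

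Set against its partners, *TRMT112* moved from near the bottom to near the top of the group. In control pools the order of mean levels was *BUD23*, *METTL5*, *THUMPD3*, *TRMT11*, *THUMPD2*, *ALKBH8*, *TRMT112*, and *N6AMT1*, and of these neighbours only *BUD23* and *METTL5* had separate ranges. In knockout pools it was *BUD23*, *TRMT112*, *METTL5*, *THUMPD3*, *TRMT11*, *THUMPD2*, *N6AMT1*, and *ALKBH8*, with separate ranges only between *THUMPD2* and *N6AMT1*. This order compares counts of 3′ ends, which need no correction for length.

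The summed level of the 7 partners was 200.1 and 388 CPM in control and 353, 289, and 297 CPM in knockout pools. The control pools enclosed the knockout pools, with means of 294 ± 133 CPM (SD, n = 2) and 313 ± 34.9 CPM (SD, n = 3). An exact two-sided permutation test over the 5 pools gave p = 1, where the smallest p it can give is 0.1. Without *BUD23*, an alternative chosen after its control values were seen, the sum was 150.1 and 132 CPM in control and 230, 162, and 166 CPM in knockout pools. It was then higher in every knockout pool (exact permutation p = 0.3 for the difference in means).

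The *TRMT112* CPM was divided by the summed CPM of the 7 partners. This ratio was 0.0406 and 0.00461 in the sgCtrl_1 and sgCtrl_2 pools and 0.526, 0.282, and 0.333 in the knockout pools. The means were 0.0226 ± 0.0255 (SD, n = 2) and 0.380 ± 0.129 (SD, n = 3). The *TRMT112* count level was thus below that of its partners combined in every pool, by less in the knockout pools. In the sgCtrl_2 pool, *BUD23* gave 256 of the 388 CPM of the sum. Reads of 3′ ends shared with other genes can shift the ratio, so it is not a ratio of transcript numbers. This ratio rests on the gene chosen for its rise and was not tested.

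**Figure D4:**
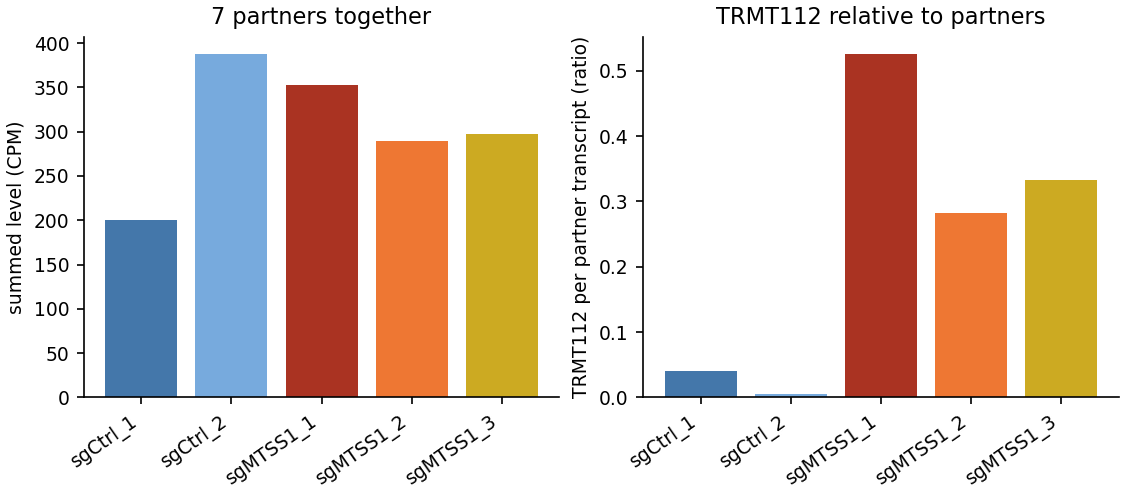
Left, summed level of the 7 partners in each pool, in CPM; right, *TRMT112* level divided by that sum, with 1 bar per pool. The sums of the knockout pools (289 to 353 CPM) lie between those of the control pools (200.1 and 388 CPM), whereas the ratio is 0.282 to 0.526 in knockout and at most 0.0406 in control pools.

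The profile of *TRMT112* over the 5 pools was then compared with that of every other tested gene, by Euclidean distance between log2 CPM values centred on each gene's mean. This is a description over 5 pools, and genes with a similar rise are near by construction. The closest were *RPS29P3* (distance 0.42), *RPL7AP6* (0.60), ENSG00000227004 (0.67), *ARPC3* (0.73), and *NACA3P* (0.78). *ARPC3*, a subunit of the actin-nucleating Arp2/3 complex, was at 25.6 and 8.34 CPM in control and at 429, 182, and 229 CPM in knockout pools. It shared with *TRMT112* the lower value in sgCtrl_2 and the highest in sgMTSS1_1.

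The other 4 of these 5 genes are annotated as processed pseudogenes, a class that made up 8.57% of all tested genes and 20.8% of the genes called higher. Their reads can be hard to tell from those of their parent genes, so their own levels are uncertain. The partners were further from *TRMT112*, and genes with a small fold change are far from it by construction. *THUMPD2* and *N6AMT1* ranked 1764th and 1997th of 14390 genes by distance, *METTL5* 3293rd, *ALKBH8* 4543rd, *THUMPD3* 5690th, *TRMT11* 5994th, and *BUD23* 10208th.

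Genes related to the steps of the partners were counted from 6 lists with 105 genes in all, of which 100 were in the table and 94 were tested. Not every listed gene acts in the step that its list is named for, so the counts and medians describe the lists only. Of the 94, 4 were called higher and 1 lower, beside 4.17% and 1.01% of all tested genes. The median log2-fold change of the 94 was −0.19. With the sgMTSS1_1 or the sgMTSS1_3 pool left out, 0 of these 5 genes were called, and 1, *CTU2*, with the sgMTSS1_2 pool left out. Calls over all tested genes fell in the same fits, from 745 to 111 without sgMTSS1_1, 191 without sgMTSS1_3, and 347 without sgMTSS1_2. *SELENOT* was also not called with either control pool left out, nor *TFB1M* (1.27, adjusted p = 0.0761) and *CSKMT* (−0.95, adjusted p = 0.111) with sgCtrl_2 left out.

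In the list for the wobble uridine pathway, in which ALKBH8 carries out a late step, 2 of 15 genes were called higher and 0 lower. Over all tested genes, the shares were 4.17% and 1.01%. The call of *CTU2* is a description only, as given below. The median log2-fold change of the list was 0.18. *URM1*, the ubiquitin-like sulfur carrier for wobble uridine thiolation, was at 62.5 and 60.2 CPM in control and at 189, 143, and 190 CPM in knockout pools. These levels were separate by a wide margin, and the log2-fold change was 1.51 (SE 0.30, adjusted p = 0.0258).

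*CTU2*, a subunit of the enzyme that adds this sulfur, was counted 0 times and once in control pools and 93 times in the knockout pools together. Its level was 0 and 0.298 CPM in control and 6.23, 3.25, and 4.70 CPM in knockout pools. The ratio of the knockout to the control pools was 32.1, with a 95% counting interval of 5.62 to 1281. *CTU2* passed the low-count filter only through the knockout pools, so it had to differ, and its call is a description. It overlaps *PIEZO1* on the opposite strand. *CTU1*, the other subunit, named here after its values were seen, was at 2.81 and 10.7 CPM in control and at 2.34, 5.06, and 2.96 CPM in knockout pools, which overlapped (−0.99, adjusted p = 0.373).

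Selenoprotein synthesis is known to need the ALKBH8 modification, but mRNA levels do not measure that synthesis. Of 27 genes listed for selenoproteins and their synthesis machinery, 20 were tested. Of these, 1 was called higher and 0 lower, beside 4.17% and 1.01% of all tested genes. The median log2-fold change of the list was −0.06. *SELENOT*, a selenoprotein of the endoplasmic reticulum, was at 6.57 and 6.56 CPM in control and at 56.3, 19.5, and 21.4 CPM in knockout pools. All knockout pools were above the control pools (log2-fold change 2.31, SE 0.54, adjusted p = 0.0429), but *SELENOT* was not called in limma-voom and overlaps *SERP1* on the opposite strand. *SELENOW*, with the highest mean level of the list over all pools, was at 83.8 and 426 CPM in control and at 229, 240, and 166 CPM in knockout pools, which lay between the control values.

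Among 14 tested genes listed for rRNA methylation and acetylation, 1 was called higher and 0 lower, beside 4.17% and 1.01% of all tested genes. The median log2-fold change of the list was −0.45. The gene called, *TFB1M*, acts on the ribosomal RNA of mitochondria rather than on that of cytosolic ribosomes. It was at 14.4 and 7.15 CPM in control and at 36.5, 31.8, and 33.6 CPM in knockout pools (log2-fold change 1.66, SE 0.38, adjusted p = 0.0394). *TFB1M* overlaps *TIAM2* and *CLDN20* on the opposite strand and the noncoding gene ENSG00000235381 on the same strand. *FBL*, which encodes fibrillarin and was the highest expressed of the list, was at 848 and 2209 CPM in control and at 653, 1175, and 1095 CPM in knockout pools, which overlapped.

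Of 31 other tRNA methyltransferase and cofactor genes, 0 were called in edgeR, beside 4.17% higher and 1.01% lower of all tested genes. In limma-voom 0 of the 31 were called (634 over all genes), and in DESeq2 1 (1286 over all genes). In edgeR, 5 had an unadjusted p under 0.05 (3 higher and 2 lower), as did 3359 of all 14391 genes. The median log2-fold change of the list was −0.06. *TRMT10C*, a mitochondrial enzyme with the highest mean level of them over all 5 pools, was at 107 and 111 CPM in control and at 135, 88.8, and 89.6 CPM in knockout pools.

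Among 11 tested genes listed as translation factor methyltransferases, 0 were called higher and 1 lower, beside 4.17% and 1.01% of all tested genes. The median log2-fold change of the list was −0.25. The gene called was *CSKMT*, at 57.2 and 117 CPM in control and at 33.2, 28.7, and 25.1 CPM in knockout pools (log2-fold change −1.58, SE 0.35, adjusted p = 0.0357). It methylates citrate synthase, not a translation factor, and overlaps *LBHD1* on the opposite strand. *EEF1AKMT2*, an elongation factor methyltransferase, had the highest mean level of the list over all 5 pools, though it was below *CSKMT* in both control pools. It was at 30.9 and 80.5 CPM in control and at 46.8, 56.7, and 55.3 CPM in knockout pools, again between the control values. *EEF1AKMT2* overlaps ENSG00000258539, annotated as protein-coding, on the same strand.

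**Figure D5:**
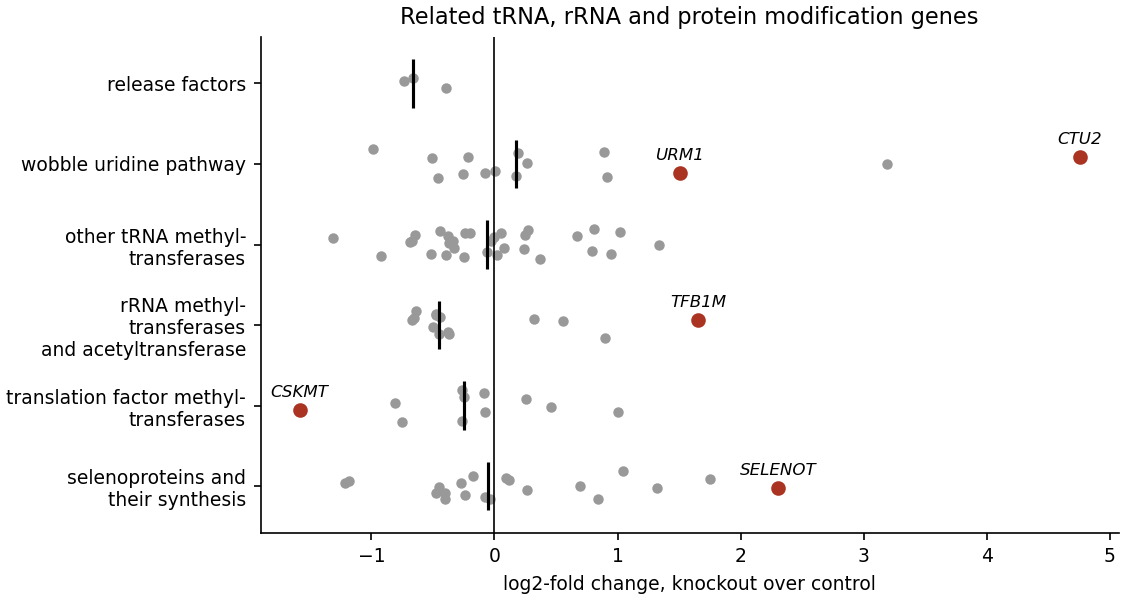
Log2-fold change of each tested gene of the 6 lists, with 1 point per gene, placed by list with random vertical shift, and a black line at each list's median. The 5 genes called are in red and named; the position of *CTU2*, which had 1 count in both control pools together, depends on the prior count of the fit.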

How the data were processed

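RNA was isolated with TRIzol from pools of 4 single-cell TF-1 clones each, and libraries were made with the QuantSeq 3′ mRNA-Seq FWD kit. The submitters' processing notes name FastQC 0.11.9, HISAT2 2.1.0, SAMtools 1.10, and the genome build GRCh38. Adapters were trimmed with BBDuk and reads without a unique alignment were removed. A further control pool and the sgMTSS1_4 pool, dropped by the authors as outliers by their expression, are not analysed here. The authors deposited whole-number counts per Ensembl gene, without normalization; the counting program, annotation release, use of strand, and handling of PCR duplicates are not given in the sources used here. Intervals from counts therefore cover counting error only.

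All 5 count columns were used, and groups were taken from the sample labels. Where nothing says that pools were handled separately, p-values measure only the spread between these 5 libraries. The 8 genes, the lists, and the alternatives were chosen with earlier results of these data known. Genes with sufficient counts (edgeR 4.0.16, filterByExpr, minimum count 10; 14391 of 27328) were normalized with TMM and tested by the quasi-likelihood test with group as the only term, in R 4.3.3. Calls required an adjusted p under 0.05 (Benjamini-Hochberg, all tested genes) together with a log2-fold change beyond 1 in either direction. DESeq2 1.42.0 and limma 3.58.1 (voom) were alternatives. CPM values use the TMM factors (0.876 to 1.13). On simulated data, 200 genes among 14391 were changed 4-fold, of which 185 were tested and 113 called, with 8 false calls. Simulated counts were drawn independently for each gene and changed up or down at random, whereas 80.5% of the calls in the data were higher. The share called need not hold for the data.

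Named genes are the 8 genes, *MTSS1*, pseudogenes named after the 8, genes overlapping them, the nearest tested gene on each side of *TRMT112*, the called genes and the gene of each list with the highest mean CPM over all pools, and the 5 genes closest to *TRMT112* in centred log2 CPM (prior count 2); others are marked as chosen after their values were seen. Of 12 annotated pseudogenes named after the 8 genes, 5 were in the table and 0 were tested. Gene positions are from GENCODE 44 (GRCh38), and 27211 rows had a symbol. The smallest two-sided p of the exact permutation test with 2 and 3 pools is 0.1. A further listed marker of other cell types is not reported here.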

Additional observations from a re-analysis of the deposited data

How the results depend on the processing

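The log2-fold change of *TRMT112* stayed between 3.93 and 6.09 over 12 alternatives (no value with at least 10 counts required in every library, which it did not reach), the range set by leaving out a control pool. *ALKBH8* and *METTL5* kept their direction over 13 alternatives and *N6AMT1* over 12, none of them called. Without TMM factors (library size only), *TRMT11* was at −0.038, *THUMPD3* at −0.036, and the summed partner level at −0.023 (log2 of knockout over control mean, 0.09 as reported); over all tested genes, the median then shifted from −0.03 to −0.17, and the share of calls that were higher went from 80.5% to 71.0%. *BUD23* was at 0.17 in limma-voom. With each pool left out in turn, the values ranged from −0.996 to 1.37 for *BUD23*, −0.15 to 1.95 for *THUMPD2*, −0.013 to 0.23 for *TRMT11*, and −0.024 to 0.34 for *THUMPD3*. They ranged from −0.30 to 0.67 for the summed partner level and from 3.23 to 6.37 for the ratio of *TRMT112* to that sum (log2 scale, 4.07 as reported). The same step gave 0 to 1 called partners, 0 to 11 called list genes (5 as reported), and 111 to 1349 called genes (745 as reported). The lone remaining control is then assumed to vary like the knockout pools. Without a low-count filter, 1374 genes and 9 list genes were called, and in DESeq2 1286 and 8. Leaving *BUD23* out of the sum gave 0.40. The causes of these shifts were not tested.

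The sgRNA or pool numbers 1 and 2 occur in both groups, but nothing in the labels says that they pair the libraries, and same-numbered libraries deviated together only weakly (r = 0.20 and 0.11 over tested genes, which are not replicates). With the number as replicate block, 1094 genes, 8 list genes, and 0 partners were called, and *BUD23* was at 0.13.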
